A study of Rattus norvegicus with 12 samples.

Results

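*Enc1*, *Edil3*, *Sh3kbp1*, *Slc6a7*, *Amigo2*, *Sstr1*, *Cxcl12* and *Rab15* are 8 rat genes that were picked for higher signals in neurons of hippocampal CA3 and frontal cortex, averaged over both, than in neurons of hippocampal CA1 and the cerebellar granule (CbG) cell layer. The mean of the first 2 regions was higher in each gene, both as labelled and with the labels of 2 arrays exchanged. However, the CA1 signals of *Enc1* and *Rab15* overlapped those of cortex, and those of *Amigo2* met them (397.8 in CA1, 397.6 in cortex). The choice was made on the same 12 arrays and set no numeric threshold. The values between the 2 groups are therefore given as a description, without a test. Of the 10411 genes that a probe set of the array names alone, these 8 are followed here, with 16 probe sets on the array and 10 that were bright enough to be tested, at least 1 for each gene.

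The study asked which genes go with the differing vulnerability of neurons to oxidative stress. CA3 and cortical (CTX) neurons form the resistant group (RES), and CA1 and CbG neurons the vulnerable group (VUL). Neurons were lifted by laser capture from cryosections of untreated Fisher 344/BN F1 hybrid rats, all 6 months old, and their total RNA was amplified in 2 cycles for the Affymetrix RAE230A array. CA3, CTX, CA1 and CbG have 3 arrays each, labelled as biological replicates 1, 2 and 3. Arrays of 1 number were taken as those of 1 animal, because the methods describe captures of all regions from each animal, but the labels do not tie a number to an animal. The p-values measure the spread between these arrays. All rats were of 1 genotype, age and treatment. By the methods the groups are regions of the same brains, and they hold different kinds of neuron. The cortical sample was taken from the deep layers. A captured layer also holds glia, vessels and interneurons, and a lower signal cannot be told apart between fewer cells of a type and less RNA per cell.

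The 8 proteins act at different places in a neuron. *Cxcl12* encodes a secreted chemokine that signals through the receptor CXCR4, and *Edil3* a secreted matrix protein that binds integrins. *Sstr1*, a somatostatin receptor that couples to inhibitory G proteins, *Amigo2*, an adhesion protein with leucine-rich repeats, and *Slc6a7*, the brain transporter that takes up L-proline at glutamatergic terminals, lie in the cell membrane. *Enc1*, a kelch protein that binds actin and serves Cul3 ubiquitin ligases, *Sh3kbp1*, an adaptor of CBL in the endocytosis of receptors, and *Rab15*, a small GTPase of the recycling endosome, work inside the cell.

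The genes lie apart in the rat genome. In the RefSeq annotation of build GRCr8 *Edil3* spans chr2:21625604-22140380 and *Enc1* chr2:30285274-30297194. *Cxcl12* spans chr4:152060781-152073628 and *Amigo2* chr7:130270639-130273735. *Sstr1* (chr6:81567237-81571759) and *Rab15* (chr6:101232740-101257388) share chromosome 6. *Slc6a7* lies at chr18:56718849-56737702 and *Sh3kbp1* at chrX:38686530-39031658. Each gene is protein-coding.

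RefSeq promoters were matched for 5 of the 8 genes (*Slc6a7*, *Amigo2*, *Sstr1*, *Cxcl12* and *Rab15*). Those of 4 are shown, because their genes differ in the pattern described below: the RES excess of *Slc6a7* and *Sstr1* was larger between CTX and CbG than between CA3 and CA1, while that of *Amigo2* and *Cxcl12* was of like size in both pairs. Each run holds the 250 bases before the annotated start, 5′ to 3′ on the gene's strand (build GRCr8). Capitals mark the GC box GGGCGG, the CRE core TGACG and the CCAAT box CCAAT, on either strand.
Slc6a7, chr18:56737703-56737952, minus strand: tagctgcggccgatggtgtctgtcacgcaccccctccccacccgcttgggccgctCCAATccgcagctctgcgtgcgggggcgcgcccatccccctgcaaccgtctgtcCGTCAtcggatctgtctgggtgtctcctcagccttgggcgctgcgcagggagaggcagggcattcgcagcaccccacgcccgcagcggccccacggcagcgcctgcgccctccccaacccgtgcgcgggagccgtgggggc
Sstr1, chr6:81567233-81567482, plus strand: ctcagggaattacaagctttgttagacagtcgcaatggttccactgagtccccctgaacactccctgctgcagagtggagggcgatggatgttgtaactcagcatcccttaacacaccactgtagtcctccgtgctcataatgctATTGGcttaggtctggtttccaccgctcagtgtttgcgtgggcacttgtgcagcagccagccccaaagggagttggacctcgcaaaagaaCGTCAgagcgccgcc
Amigo2, chr7:130273736-130273985, minus strand: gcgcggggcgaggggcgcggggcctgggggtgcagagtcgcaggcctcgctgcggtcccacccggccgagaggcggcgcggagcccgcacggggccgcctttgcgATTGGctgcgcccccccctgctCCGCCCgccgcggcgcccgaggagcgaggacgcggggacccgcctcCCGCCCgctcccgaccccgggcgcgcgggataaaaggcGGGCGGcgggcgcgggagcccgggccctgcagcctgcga
Cxcl12, chr4:152060531-152060780, plus strand: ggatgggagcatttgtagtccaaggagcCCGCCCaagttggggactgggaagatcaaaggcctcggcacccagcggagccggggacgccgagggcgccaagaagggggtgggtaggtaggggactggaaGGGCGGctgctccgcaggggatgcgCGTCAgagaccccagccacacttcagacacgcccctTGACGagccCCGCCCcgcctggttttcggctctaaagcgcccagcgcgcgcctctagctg
*Slc6a7* and *Sstr1* each held 1 TGACG and 1 CCAAT, *Amigo2* held 3 GGGCGG and 1 CCAAT, and *Cxcl12* held 3 GGGCGG and 2 TGACG. Their GC content was 73.2%, 54.4%, 82.8% and 67.6%. The run printed for *Sstr1* lies almost wholly inside the annotated gene span, which begins at an upstream start. The GC box, the CRE core and the CCAAT box were each found in 3 of the 5 promoters, and in 30.5%, 18.2% and 34.0% of all 33469 promoters. The letters CANNTG (an E-box) were in 3 of 5 and 65.5%, and TATAAA in 0 of 5 and 12.9%. No motif was shared by all 5 promoters.

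The deposited values are MAS5 signals, intensities on a linear scale that the authors scaled to 1 target per array. They ran from 0.1 to 68797.3, with array medians of 145.5 to 199.3, and precision is limited by having 3 arrays per region. The array that correlated best with the one labelled CA3 replicate 3, over all probe sets, was CbG replicate 1 (Pearson's r = 0.932). For the one labelled CbG replicate 3 it was CA3 replicate 1 (r = 0.933). The summed signal of granule cell markers was 28759.3 in CA3 replicate 3, against 1849.4 and 1935.1 in the other CA3 arrays, and 1933.2 in CbG replicate 3, against 25868.7 and 28635.1 in the other CbG arrays. *Grik4*, a CA3 marker, had 68.0 in CA3 replicate 3 and 621.0 in CbG replicate 3, against 679.9 and 969.0 in CA3 replicates 1 and 2. The markers of each of these arrays thus went against its label. *Pcp2* and *Car8*, genes of Purkinje cells, were lower in CA3 replicate 3 (294.9 and 115.0) than in CbG replicates 1 and 2 (1883.2 and 3601.6 for *Pcp2*, 3849.7 and 9876.9 for *Car8*). Signals and differences of the 8 genes are therefore given as labelled and with the 2 labels exchanged, and counts of called genes also over the 10 arrays without these 2. The exchange was prompted by values of these arrays, and its p-values do not count that choice.

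All 8 genes followed the same exchange in their probe set of the highest mean signal. There, CA3 replicate 3 was nearer to CbG replicates 1 and 2 in 8 of 8 genes. It was so in 90.4% of the 2748 tested probe sets that were at least 2-fold apart between the other CA3 and CbG arrays. CbG replicate 3 was nearer to CA3 replicates 1 and 2 in 8 of 8, against 92.4% of those probe sets. These shares are close to each other, so the 8 genes behaved here as most genes did. The dimmer tested probe set of *Sh3kbp1* followed the exchange too, but that of *Cxcl12* did not. In the latter, CA3 replicate 3 was nearer to the other CA3 arrays and CbG replicate 3 to the other CbG arrays. As labelled, every RES array was above every VUL array for 0 of the 8 genes (0.122% of all tested probe sets). This held for 5 genes with the labels exchanged (1.99% of all) and for the same 5 over the 10 arrays (2.58%), namely *Edil3*, *Sh3kbp1*, *Slc6a7*, *Sstr1* and *Cxcl12*. Since the genes were chosen for this contrast, nothing is read from these counts.

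**Figure D1:**
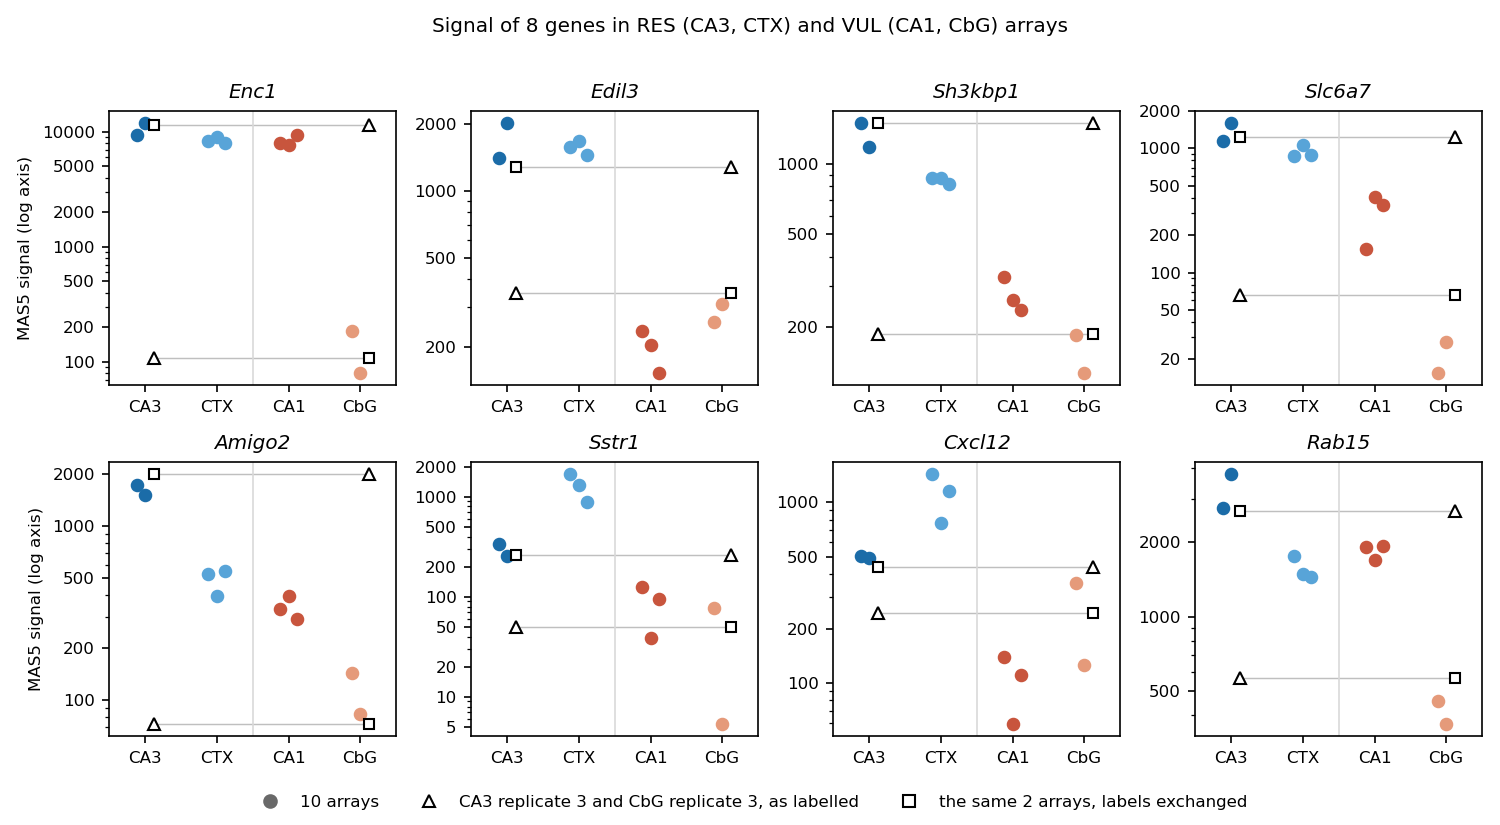
MAS5 signal on a log axis of the 8 genes in every array, by region, with CA3 and CTX left of CA1 and CbG. Filled circles are the 10 arrays whose markers went with their labels, triangles are CA3 replicate 3 and CbG replicate 3 as labelled, squares are the same 2 arrays with labels exchanged, and a line joins both positions. The *Enc1* signals of 108.0 and 11390.0 each lie beside the other arrays of their region after the exchange.

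Of the secreted factors, *Cxcl12* had signals of 502.2, 491.1 and 242.4 in CA3 replicates 1, 2 and 3 and 1428.0, 764.0 and 1150.4 in CTX, against 139.1, 59.5 and 111.1 in CA1 and 355.0, 125.8 and 440.0 in CbG. Every CTX array was above every other array, and every CA1 array except the first was below every CbG array. After the exchange *Cxcl12* averaged 478 ± 33.2 in CA3 and 1114 ± 333 in CTX, against 103 ± 40.4 in CA1 and 241 ± 115 in CbG (SD, n = 3 each). The RES excess was of like size in both pairs, with a log2 difference of 2.30 (4.94-fold) for CA3 minus CA1 and 2.10 (4.30-fold) for CTX minus CbG, and 2.03 and 1.83 as labelled. A dimmer probe set of *Cxcl12* had 241.4, 354.6 and 432.9 in CA3 and 575.8, 302.0 and 760.2 in CTX, against 171.1, 104.3 and 193.6 in CA1 and 316.8, 123.9 and 235.6 in CbG. It gave log2 differences of 0.86 and 0.80 with the labels exchanged and of 1.16 and 1.11 as labelled, so that here the exchange lowered both. The probe sets of *Cxcl12* thus disagree on the size of the excess.

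*Edil3* had 1406.5, 2006.1 and 349.1 in CA3 and 1568.3, 1669.8 and 1448.6 in CTX, against 235.0, 203.9 and 152.9 in CA1 and 258.4, 309.7 and 1282.8 in CbG. The arrays of each region lay close together but for the 2 in doubt, and the CA3 array at 349.1 lay just above the other CbG arrays. After the exchange the means were 1565 ± 387 in CA3 and 1562 ± 111 in CTX, against 197 ± 41.5 in CA1 and 306 ± 45.5 in CbG (SD, n = 3 each), and the lowest RES array (1282.8) stood well above the highest VUL array (349.1). The log2 difference was 2.99 (7.96-fold) in the CA3 and CA1 pair and 2.18 (4.53-fold) in the CTX and CbG pair. As labelled these were 2.38 and 1.56. *Edil3* was the 1 gene of the 8 with a larger value in the hippocampal pair by more than 0.5.

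Among the membrane proteins, *Sstr1* had 338.1, 254.4 and 49.7 in CA3 and 1678.6, 1307.1 and 878.2 in CTX, against 124.6, 39.0 and 95.3 in CA1 and 76.8, 5.4 and 261.5 in CbG. The receptor was a cortical gene in these arrays, since each CTX array was above each of the other 9. Means after the exchange were 285 ± 46.4 in CA3 and 1288 ± 401 in CTX, against 86.3 ± 43.5 in CA1 and 44.0 ± 36.0 in CbG (SD, n = 3 each). CTX exceeded CbG by 5.32 on the log2 scale (40.0-fold) and CA3 exceeded CA1 by 1.88 (3.67-fold). As labelled these were 4.53 and 1.09. The CbG signals lie near the low end of the array, 5.4 in replicate 2, so the fold against CbG is loosely set. The CTX minus CbG value of *Sstr1* was 5.85 (57.5-fold) over the 10 arrays.

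The transporter gene *Slc6a7* is read from a probe set that has no symbol in the annotation used here and that the study alone names. Its signals were 1144.5, 1594.9 and 66.5 in CA3 and 876.3, 1064.0 and 877.3 in CTX, against 154.5, 408.6 and 349.2 in CA1 and 15.6, 27.6 and 1226.2 in CbG. Leaving aside the arrays in doubt, the regions form 3 steps, with CA3 and CTX high, CA1 between and CbG low. Its means after the exchange were 1322 ± 240 in CA3 and 939 ± 108 in CTX, against 304 ± 133 in CA1 and 36.6 ± 26.6 in CbG (SD, n = 3 each). The log2 difference was 4.75 (26.9-fold) for CTX minus CbG and 2.23 (4.70-fold) for CA3 minus CA1, or 3.36 and 0.84 as labelled. The CbG signals were far below every array median, so this fold is loosely set as well. The value for CTX minus CbG ran from 4.25 to 5.43 as arrays or replicates were left out and was 5.30 (39.4-fold) over the 10 arrays. The probe set that the annotation names *Slc6a7* was low and flat, with 182.3, 120.1 and 77.4 in CA3 and 174.9, 127.5 and 115.8 in CTX, against 79.5, 75.3 and 118.1 in CA1 and 140.6, 85.0 and 173.7 in CbG. It did not pass the filter, and its groups overlapped.

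*Amigo2* had 1724.6, 1509.6 and 73.2 in CA3 and 527.3, 397.6 and 554.3 in CTX, against 334.2, 397.8 and 290.9 in CA1 and 143.1, 82.9 and 1983.4 in CbG. Without the arrays in doubt, the order was CA3, CTX, CA1 and CbG, with CTX and CA1 meeting at 397.6 and 397.8. The means with the labels exchanged were 1739 ± 237 in CA3 and 493 ± 83.8 in CTX, against 341 ± 53.8 in CA1 and 99.7 ± 37.9 in CbG (SD, n = 3 each). Although the levels differed, the log2 difference was similar in both pairs, 2.36 (5.15-fold) for CA3 minus CA1 and 2.17 (4.51-fold) for CTX minus CbG. As labelled both shrank, to 0.79 and 0.60.

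Of the intracellular proteins, *Enc1* had 9379.1, 11868.3 and 108.0 in CA3 and 8352.5, 9091.8 and 7981.4 in CTX, against 8001.4, 7659.7 and 9379.3 in CA1 and 184.2, 80.4 and 11390.0 in CbG. It was thus bright in all 3 forebrain regions, CA1 included, and dim in the granule layer. The means after the exchange were 10879 ± 1321 in CA3 and 8475 ± 565 in CTX, against 8347 ± 910 in CA1 and 124 ± 53.8 in CbG (SD, n = 3 each). CTX exceeded CbG by 5.99 on the log2 scale (63.8-fold), and CA3 exceeded CA1 by 0.39 (1.31-fold). As labelled the hippocampal value turned to -1.84 and the other was 3.76, with 1 array at 108.0 counted as CA3. The RES and VUL difference of *Enc1*, 3.19 with the labels exchanged, therefore rested almost wholly on CbG, and the array labels set the sign of its hippocampal part.

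*Sh3kbp1* had 1491.4, 1176.5 and 187.5 in CA3 and 873.0, 872.2 and 816.3 in CTX, against 328.9, 261.3 and 236.4 in CA1 and 185.5, 127.9 and 1491.6 in CbG. Means were 1386.5 ± 182 in CA3 and 854 ± 32.5 in CTX, against 276 ± 47.9 in CA1 and 167 ± 33.8 in CbG (SD, n = 3 each) after the exchange. The groups were then well apart, and the log2 difference was 2.35 (5.08-fold) for CA3 minus CA1 and 2.19 (4.57-fold) for CTX minus CbG (1.36 and 1.21 as labelled). A dimmer probe set had 477.2, 361.3 and 41.3 in CA3 and 342.5, 321.4 and 323.4 in CTX, against 74.3, 105.5 and 59.3 in CA1 and 57.8, 22.6 and 373.4 in CbG. Its log2 differences were 2.38 and 2.94 with the labels exchanged, so both probe sets of *Sh3kbp1* showed the excess in each pair.

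*Rab15* had 2742.2, 3764.4 and 567.3 in CA3 and 1765.1, 1491.1 and 1447.3 in CTX, against 1911.6, 1691.9 and 1935.7 in CA1 and 455.4, 370.4 and 2681.7 in CbG. CTX and CA1 overlapped, so that the gene was not set apart by group in any arrangement of the arrays. *Rab15* averaged 3063 ± 608 in CA3 and 1568 ± 172 in CTX, against 1846 ± 134 in CA1 and 464 ± 98.8 in CbG (SD, n = 3 each) after the exchange. Its log2 differences were the smallest of the 8 in RES and VUL terms (1.16), with 1.59 (3.01-fold) for CTX minus CbG and 0.72 (1.65-fold) for CA3 minus CA1. As labelled these were 0.85 and -0.01. The other 6 probe sets of the 8 genes were too dim to be tested, among them a second one of *Enc1* with signals of at most 52.8.

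Set beside each other, the genes fell into different patterns. The CTX and CbG pair carried 93.9% of the sum of both differences in *Enc1*, 73.9% in *Sstr1*, 68.7% in *Rab15* and 68.0% in *Slc6a7*, with the labels exchanged. In *Sh3kbp1*, *Amigo2* and *Cxcl12* it carried 48.3%, 47.9% and 47.7%, and in *Edil3* 42.1%. Over the 10 arrays the share was 93.5% in *Enc1*, 75.2% in *Sstr1*, 68.1% in *Rab15* and 69.1% in *Slc6a7*, and 44.4% to 51.5% in the other 4. The plot of both pairs shows 3 genes far above the line of equal differences, *Rab15* a little above it and 4 at or just below it.

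**Figure D2:**
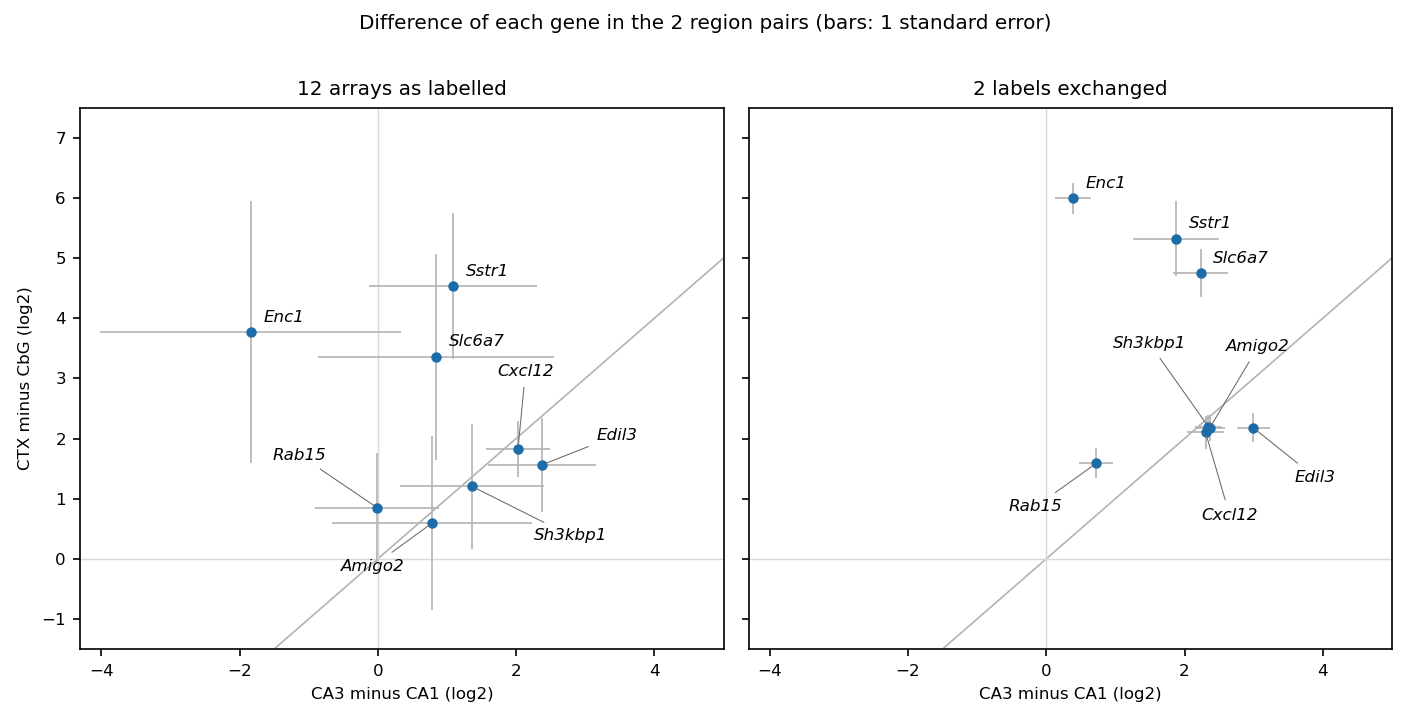
Log2 difference of CA3 minus CA1 (x axis) and CTX minus CbG (y axis) of the 8 genes, as labelled (left) and with the 2 labels exchanged (right), with bars of 1 standard error and a line of equal differences. With the labels exchanged all 8 genes have positive values on both axes, and *Enc1* lies at 0.39 and 5.99.

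The difference between the pairs, (CTX minus CbG) minus (CA3 minus CA1), did not enter the choice of the genes and was tested with limma. A call needed a Benjamini-Hochberg adjusted p under 0.05 over the 8986 tested probe sets and at least 1.5-fold. As labelled, limma called 0 of 8 genes (2.01% of all tested probe sets), and 0 had an unadjusted p under 0.05. After the exchange 3 of 8 were called (22.0% of all), and the same 3 over the 10 arrays (13.3% of all). *Enc1* had a pair difference of 5.60 (SE 0.37, adjusted p = 4.92e-06), *Sstr1* of 3.44 (SE 0.875, adjusted p = 0.0178) and *Slc6a7* of 2.52 (SE 0.566, adjusted p = 0.00958). In each of these the RES excess was larger in the CTX and CbG pair. Over the 10 arrays the values were 5.54 (adjusted p = 0.00026) for *Enc1*, 3.92 (adjusted p = 0.0388) for *Sstr1* and 2.92 (adjusted p = 0.00324) for *Slc6a7*. A share of 3 in 8 is above that of all probe sets, but the genes were chosen for large differences, and nothing particular to them is read from it. The calls of *Sstr1* and *Slc6a7* were lost without the 4 arrays of replicate 1 (adjusted p = 0.0869 and 0.0578). Leaving out replicate 3 also ended the call of *Sstr1* (0.0603), and leaving out replicate 2 that of *Slc6a7* (0.0747).

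The estimate of the pair difference does not depend on the labels in doubt, because CA3 and CbG enter it with the same sign. Exchanging the labels changed it by 0.0 in all 8986 probe sets, and altered only its error. For *Enc1* it was 5.60 with an SE of 3.08 as labelled (adjusted p = 0.401, 95% confidence interval -1.43 to 12.6), against 4.79 to 6.42 with the labels exchanged. The standard error as labelled was 8.37 times that after the exchange for *Enc1*, and 0.864 times for the dimmer probe set of *Cxcl12*, the lowest of the 10 tested probe sets, while the median over all probe sets was 1.33.

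The other 5 genes missed the test, which does not show that their pairs were equal. *Rab15* had a pair difference of 0.86 (95% confidence interval 0.10 to 1.63, adjusted p = 0.101) and *Edil3* of -0.81 (-1.57 to -0.06, adjusted p = 0.116). The interval was -0.75 to 0.44 for *Sh3kbp1*, -0.86 to 0.48 for *Amigo2* and -1.05 to 0.64 for *Cxcl12* (adjusted p = 0.728, 0.697 and 0.749). *Rab15* was called where the arrays were not centred (1.06, adjusted p = 0.0294) or were quantile normalized (1.14, adjusted p = 0.0159), and without CA3 replicate 2 (1.14, adjusted p = 0.0322) or the array labelled CA3 replicate 3 (1.11, adjusted p = 0.0411).

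**Figure D3:**
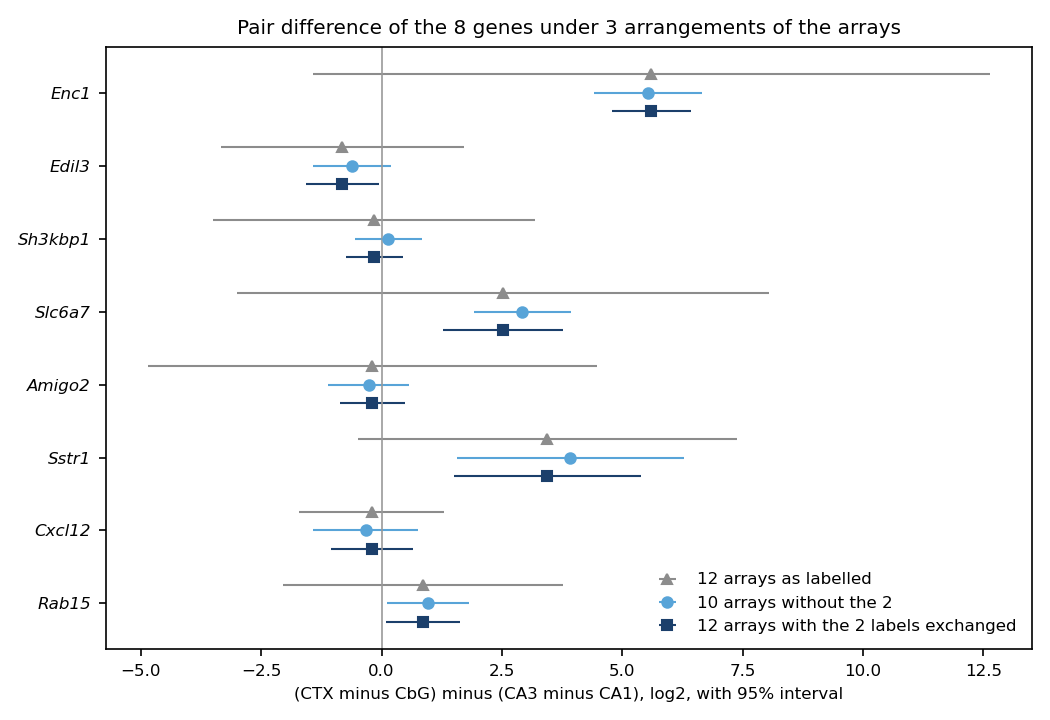
Pair difference of the 8 genes, (CTX minus CbG) minus (CA3 minus CA1) on the log2 scale, with 95% confidence intervals, for 12 arrays as labelled (triangles), 10 arrays (circles) and 12 arrays with the 2 labels exchanged (squares). *Enc1*, *Sstr1*, *Slc6a7* and *Rab15* lie above 0 with intervals that exclude 0 in the last 2 arrangements, though *Rab15* was not called in either. *Edil3* lies below 0, with an interval that excludes 0 only with the labels exchanged, and was not called. The intervals are not adjusted for the number of probe sets. Triangle and square of a gene have the same position.

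Within RES, the order of CTX and CA3 was not used in the choice either. As labelled, limma called 0 of 8 genes (1.94% of all probe sets), and 1 of them, *Cxcl12*, had an unadjusted p under 0.05. After the exchange 5 of 8 were called (33.5% of all), and over the 10 arrays 4 of 8 (27.6% of all). *Amigo2* was lower in CTX than in CA3, by -2.15 on the log2 scale (SE 0.215, adjusted p = 9.91e-05), and so were *Rab15* (-1.28, SE 0.245, adjusted p = 0.00357) and *Sh3kbp1* (-1.02, SE 0.191, adjusted p = 0.00323). *Sstr1* was higher in CTX, by 1.82 (SE 0.618, adjusted p = 0.0424), as was *Cxcl12*, by 0.85 (SE 0.270, adjusted p = 0.0323). The adhesion protein and the endocytic genes thus peaked in CA3, and the somatostatin receptor and the chemokine in the deep cortex. *Enc1* (-0.68, 95% confidence interval -1.25 to -0.10, adjusted p = 0.0631), *Slc6a7* (-0.81, -1.69 to 0.08, adjusted p = 0.136) and *Edil3* (-0.30, -0.83 to 0.23, adjusted p = 0.345) were not called. The calls of *Cxcl12* and *Sstr1* were lost over the 10 arrays (adjusted p = 0.141 and 0.0893) and without the replicate number as a block (adjusted p = 0.0920 and 0.0769), while *Slc6a7* was called lower over the 10 arrays (-0.95, adjusted p = 0.0450). The dimmer probe set of *Cxcl12* gave 0.58 (adjusted p = 0.258). Leaving out CA3 replicate 1 ended both calls (adjusted p = 0.145 and 0.146), as did leaving out CTX replicate 2 (0.0850 and 0.182), CTX replicate 1 or the array labelled CbG replicate 3. The call of *Sstr1* was also lost without any 1 of the CA1 arrays (adjusted p = 0.0536 to 0.0560), without replicate 1 (0.177) or without replicate 3 (0.104). That of *Cxcl12* was lost without replicate 1 (0.227), replicate 3 (0.177) or CTX replicate 3 (0.0874). Without the block *Enc1* was called (adjusted p = 0.0466), and not only there. It was also called in 2 of the 15 runs that left out an array or a replicate. *Sh3kbp1* lost its call without replicate 1 (adjusted p = 0.0604), and its dimmer probe set gave -0.61 (adjusted p = 0.120).

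Markers of other cells moved with the cortical excess of *Sstr1* and *Cxcl12*. With the labels exchanged, the summed signal of endothelial markers, of which 5 of 7 are on the array and 2 were tested, was 1318.2 to 2075.7 in CTX, against 485.7 to 617.4 in CA3, 372.1 to 618.6 in CA1 and 645.1 to 1333.9 in CbG. The microglia markers (7 of 7 on the array, 2 tested) summed to 890.9 to 1500.4 in CTX, against 393.3 to 703.2 in CA3, 346.8 to 651.2 in CA1 and 504.1 to 878.8 in CbG. For the interneuron markers, with all 7 on the array and 6 tested, the sum was 12143.2 to 16583.3 in CTX, against 3888.4 to 5411.5 in CA3, 7839.4 to 9219.6 in CA1 and 3057.1 to 10303.5 in CbG. In these 3 lists CTX lay above each other region without overlap, except that the endothelial sums of CTX and CbG overlapped. Oligodendrocyte markers (7 of 8 on the array, 6 tested) summed to 29077.7 to 44398.8 in CTX, against 10074.4 to 13491.9 in CA3, 4333.3 to 6784.7 in CA1 and 14195.6 to 20790.2 in CbG. Astrocyte markers (7 of 7 on the array, 6 tested) summed to 16010.9 to 28863.5 in CTX, against 8189.6 to 14770.7 in CA3, 10443.9 to 13904.9 in CA1 and 16023.1 to 24465.4 in CbG. All 5 lists were higher in CTX than in CA3 without overlap, and the astrocyte ranges of CTX and CbG overlapped. The part of these cells in the difference of both genes was not tested. The deep-layer cortical markers summed to 2221.1 to 2442.4 in CTX, against 282.9 to 470.1 in CA3, as the label of the cortical arrays says.

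Within VUL, CbG was set against CA1. As labelled limma called 0 of 8 genes (0.824% of all), and again *Cxcl12* alone had an unadjusted p under 0.05. The exchange of labels gave 6 of 8 called genes (40.6% of all), and the 10 arrays gave 7 of 8 (37.1% of all). *Enc1* was lower in CbG than in CA1, by -6.28 on the log2 scale (SE 0.260, adjusted p = 4.91e-08), followed by *Slc6a7* (-3.33, SE 0.400, adjusted p = 7.66e-05), *Rab15* (-2.14, adjusted p = 5.30e-05), *Amigo2* (-1.96, adjusted p = 4.03e-05) and *Sh3kbp1* (-0.86, adjusted p = 0.00402). *Cxcl12* was the 1 gene higher in CbG, by 1.05 (adjusted p = 0.00923). The granule layer had the lowest mean of the 4 regions in these 5 genes and in *Sstr1*, and the CA1 means of *Enc1* and *Rab15* were near those of CTX. *Sstr1* (-1.63, 95% confidence interval -3.00 to -0.26, adjusted p = 0.0546) and *Edil3* (0.51, -0.02 to 1.04, adjusted p = 0.110) were not called, and *Sstr1* was called over the 10 arrays (adjusted p = 0.0402) and without replicate 2, whose CbG array had 5.4 (-0.99, adjusted p = 0.0123). With the labels exchanged, *Sstr1* passed the signal filter through its RES arrays alone. All its CA1 and CbG signals were below their array medians, so nothing is read from its calls between these 2 regions. *Cxcl12* lost its call without replicate 1 (adjusted p = 0.0724) or replicate 3 (0.0590), and *Sh3kbp1* without replicate 1 (0.0843). The dimmer probe set of *Cxcl12* gave 0.63 (adjusted p = 0.212), and that of *Sh3kbp1* -1.17 (adjusted p = 0.00732).

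**Figure D4:**
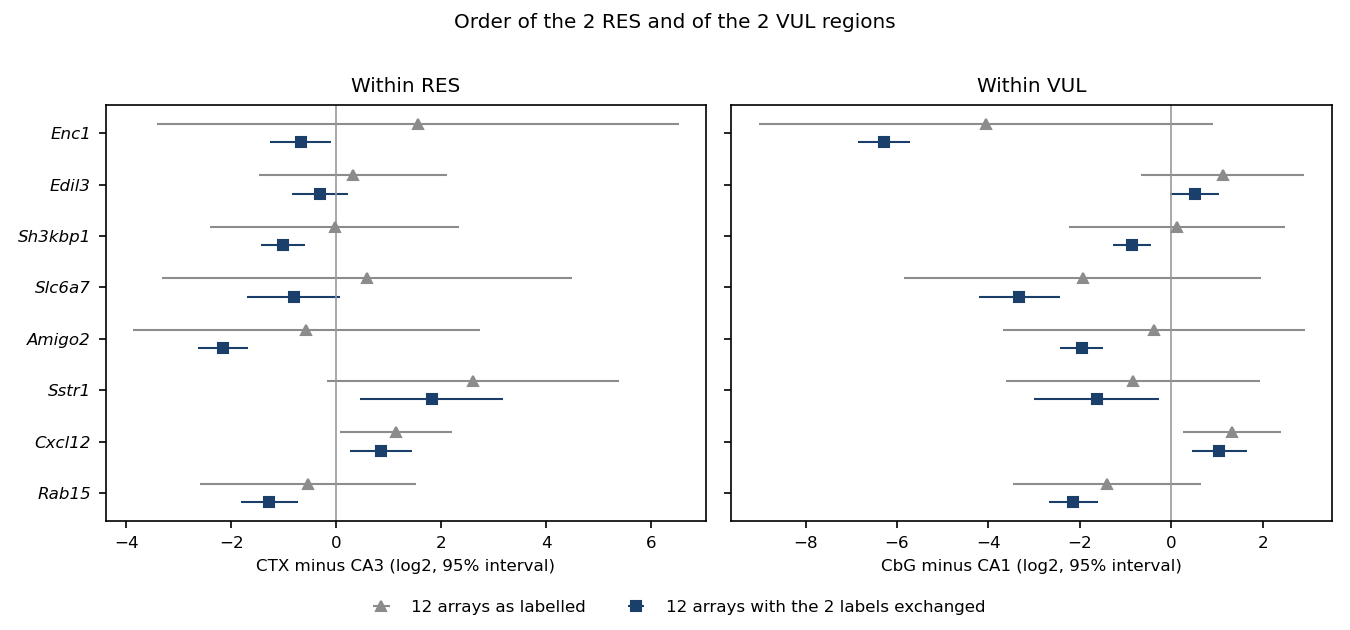
Log2 difference of CTX minus CA3 (left, within RES) and CbG minus CA1 (right, within VUL) of the 8 genes, with 95% confidence intervals, as labelled (triangles) and with the 2 labels exchanged (squares). With the labels exchanged *Amigo2*, *Rab15*, *Sh3kbp1*, *Enc1* and *Slc6a7* lie below 0 in both panels, and *Cxcl12* lies above 0 in both. The left interval of *Slc6a7* includes 0.

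The 8 genes did not form 1 profile. Over the 12 arrays, without regard to labels, Pearson's r of the centred log2 signals was between 0.194 (*Cxcl12* and *Rab15*) and 0.924 (*Sh3kbp1* and *Amigo2*) in the 28 pairs of genes, with a median of 0.744. *Enc1* went with *Rab15* (r = 0.92) and with *Slc6a7* (r = 0.896). The points share the 4 regions and 3 replicate numbers, and these values are a description.

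Other genes followed the same arrays closely. Nearest to the mean profile of the 8 genes was *Ncald*, a neuronal calcium sensor (r = 0.982 over 12 arrays, signals 143.1 to 6419.0), which was higher in CA3 than CA1 by 2.27 and in CTX than CbG by 4.58 with the labels exchanged. After it came *Sulf2*, an extracellular sulfatase of heparan sulfate (r = 0.955), *Stx1a*, a SNARE protein of the presynaptic membrane (0.947), and *Sorcs2*, a sorting receptor (0.947). *Msmo1*, an enzyme of cholesterol synthesis, *Kcnmb4*, a subunit of BK potassium channels, *Sgk1*, a kinase, *Tmtc1*, *Crtac1* and the semaphorin receptor *Plxnc1* had r between 0.944 and 0.922. *Sulf2* had a log2 difference of 2.19 in the hippocampal and 2.54 in the other pair. These genes were picked by their likeness in the same arrays, so their values carry no test.

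For single genes, the closest were *Sema3c* and *Lmo4* for *Enc1* (r = 0.986 and 0.985), *Epha5* and *Aak1* for *Rab15* (0.987 and 0.983), and *Baalc* and *Lingo1* for *Slc6a7* (0.968 and 0.967). *Lmo4*, like *Enc1*, had little between CA3 and CA1 (-0.20) and much between CTX and CbG (2.53). *Plcl1* and the neuropeptide gene *Grp* were closest to *Edil3* (0.977 and 0.932), and *Grp*, like *Edil3*, had the larger value in the hippocampal pair (6.31, against 4.62 in the other). *Sulf2* was among the closest of both *Amigo2* (0.974, with *Me3* at 0.972) and *Sh3kbp1* (0.951, with *Plxnc1* at 0.956). *Sema5a* and *Inpp5d* were closest to *Sstr1* (0.952 and 0.913), and *Anxa4* and *Cd83* to *Cxcl12* (0.936 and 0.917).

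Genes that work with the 8 proteins were taken from 8 lists, with 154 genes listed, 121 on the array and 90 tested. The lists were made by function, with earlier results of these data known. In RES minus VUL, limma called 0 as labelled (0.0111% of all tested probe sets), while 7 had an unadjusted p under 0.05 and 2 passed the methods' paired test before adjustment (0 after it). With the labels exchanged 11 were higher in RES (8.59% of all tested probe sets were) and 4 were lower (10.8% of all were), so that the partners together were called no more often than other genes (16.7%, against 19.4% of all). Their median log2 difference was 0.13, against -0.079 over all probe sets. Over the 10 arrays 8 were higher and 2 lower (11.1%, against 17.4% of all). In the pair difference with the labels exchanged, 17 partners were higher and 4 lower, against 908 higher and 1072 lower of all 8986 tested probe sets. The share called in either direction was 23.3%, against 22.0% of all, but the partners lay more on the higher side. As labelled 4 partners were higher and 1 lower (5.56%), against 99 and 82 of all (2.01%). Whether the lists differ from other genes in this split was not tested. The values that follow are with the labels exchanged.

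Of the integrins and matrix ligands listed with *Edil3*, 2 of 10 tested were higher and 1 lower in RES. *Mfge8*, which binds the same integrins, was higher by 0.65 (SE 0.167, adjusted p = 0.0158), with 370.1 to 809.9 in CTX and 157.8 to 273.7 in the other arrays. *Ptk2*, the focal adhesion kinase, was higher by 0.62 (SE 0.145, adjusted p = 0.0104) and *Itga7*, a laminin receptor subunit, lower by -0.80 (SE 0.235, adjusted p = 0.0277), but their pair differences of 3.36 and -4.33 show that the pairs ran in opposite directions. The calls of *Mfge8* and *Itga7* were lost over the 10 arrays (adjusted p = 0.0664 and 0.0520). In the *Cxcl12* list, 1 of 5 was higher, the neuronal chemokine *Cx3cl1* (0.60, SE 0.143, adjusted p = 0.0112), and 1 was lower, the heparan sulfate proteoglycan *Sdc2* (-0.77, SE 0.162, adjusted p = 0.00600). The receptors of CXCL12 were dim, *Cxcr4* at 37.1 to 138.4 and *Ackr3* at 46.7 to 230.3, and neither was tested.

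For somatostatin signaling, 1 of 9 was higher and 1 lower in RES. The peptide itself, *Sst*, went with its receptor *Sstr1*. It had 1402.0 to 1594.0 in CTX and 109.4 to 444.1 in the other 9 arrays, and its RES minus VUL difference was 1.34 (SE 0.297, adjusted p = 0.00770). *Sst* is also one of the interneuron markers given above. *Adcy8*, an adenylyl cyclase stimulated by calcium, was lower by -1.68 (SE 0.170, adjusted p = 9.8e-05). It had 34.0 to 62.8 in CA3 with the labels exchanged and 197.5 to 249.8 in CTX, against 237.9 to 327.6 in CA1 and 278.0 to 408.5 in CbG. *Adcy8* thus ran opposite to *Sstr1* in both pairs, and its low level was that of CA3.

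Among proteins with leucine-rich repeats listed with *Amigo2*, 2 of 7 were higher in RES, *Lingo1* by 1.21 (SE 0.181, adjusted p = 0.000936) and *Flrt2* by 0.69 (SE 0.144, adjusted p = 0.00570). *Lingo1* was also among the genes closest to *Slc6a7*. *Flrt2* was brightest in CA1 (871.9 to 1077.7), with CA3 below CA1 by -0.94 and CTX above CbG by 2.32. Of the 5 tested SLC6 transporters listed with *Slc6a7*, limma called 0 in either direction, and 0 passed the methods' paired test. *Slc6a6* (0.55, adjusted p = 0.0179) and *Slc6a9* (0.54, adjusted p = 0.00529), the 2 with an unadjusted p under 0.05, passed the adjusted p and missed only the fold minimum of 1.5.

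The *Enc1* list of kelch and Cul3 genes had 1 of 14 past the test, higher in RES. *Klhl2*, a kelch protein that binds actin, was higher by 1.07 (SE 0.151, adjusted p = 0.000698), with 575.8 to 734.9 in CA3 with the labels exchanged and 166.7 to 217.9 in CTX, against 215.9 to 253.8 in CA1 and 81.1 to 115.3 in CbG. In contrast with *Enc1*, its larger difference was that of CA3 and CA1 (1.46, against 0.67 in the other pair), although the difference between the pairs missed the test (adjusted p = 0.0885).

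In CBL-linked endocytosis, listed with *Sh3kbp1*, 3 of 15 were higher and 1 lower. *Sh3gl3*, an endophilin and so a partner of this adaptor, was higher by 1.11 (SE 0.244, adjusted p = 0.00739), the clathrin adaptor subunit *Ap2a2* by 0.76 (SE 0.177, adjusted p = 0.00969) and *Asap1* by 0.68 (SE 0.203, adjusted p = 0.0305). The ubiquitin ligase *Cblb* was lower by -0.59 (SE 0.187, adjusted p = 0.0385), and is named after its value was seen. *Ap2a2* rose in the hippocampal pair (1.62), and *Asap1* ran opposite ways in the pairs (-1.21 in CA3 minus CA1 and 2.57 in CTX minus CbG). *Asap1* and *Cblb* lost their calls over the 10 arrays (adjusted p = 0.0548 and 0.138). Of 25 RAB GTPases and effectors listed with *Rab15*, 1 passed the test, higher in RES. *Rab26*, a RAB of secretory vesicles, was higher by 0.62 (SE 0.127, adjusted p = 0.00521) with a pair difference of 4.60, from 145.8 to 189.9 in CbG with the labels exchanged, and it too was brightest in CA1 (1464.7 to 2084.9).

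The partner calls were not equally firm. Those of *Klhl2*, *Lingo1*, *Sst* and *Adcy8* held in each alternative run with the labels exchanged and over the 10 arrays. Leaving out replicate 1 ended those of *Sh3gl3* (adjusted p = 0.0525), *Ap2a2* (0.150) and *Sdc2* (0.105), and leaving out replicate 3 that of *Flrt2* (0.0538). *Mfge8*, *Itga7*, *Ptk2*, *Asap1*, *Cx3cl1* and *Rab26* each lost the call in several alternatives, and *Cblb* was not run in them. *Slc6a6* and *Slc6a9* passed where the arrays were not centred (0.63 and 0.62, adjusted p = 0.0104 and 0.00339).

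**Figure D5:**
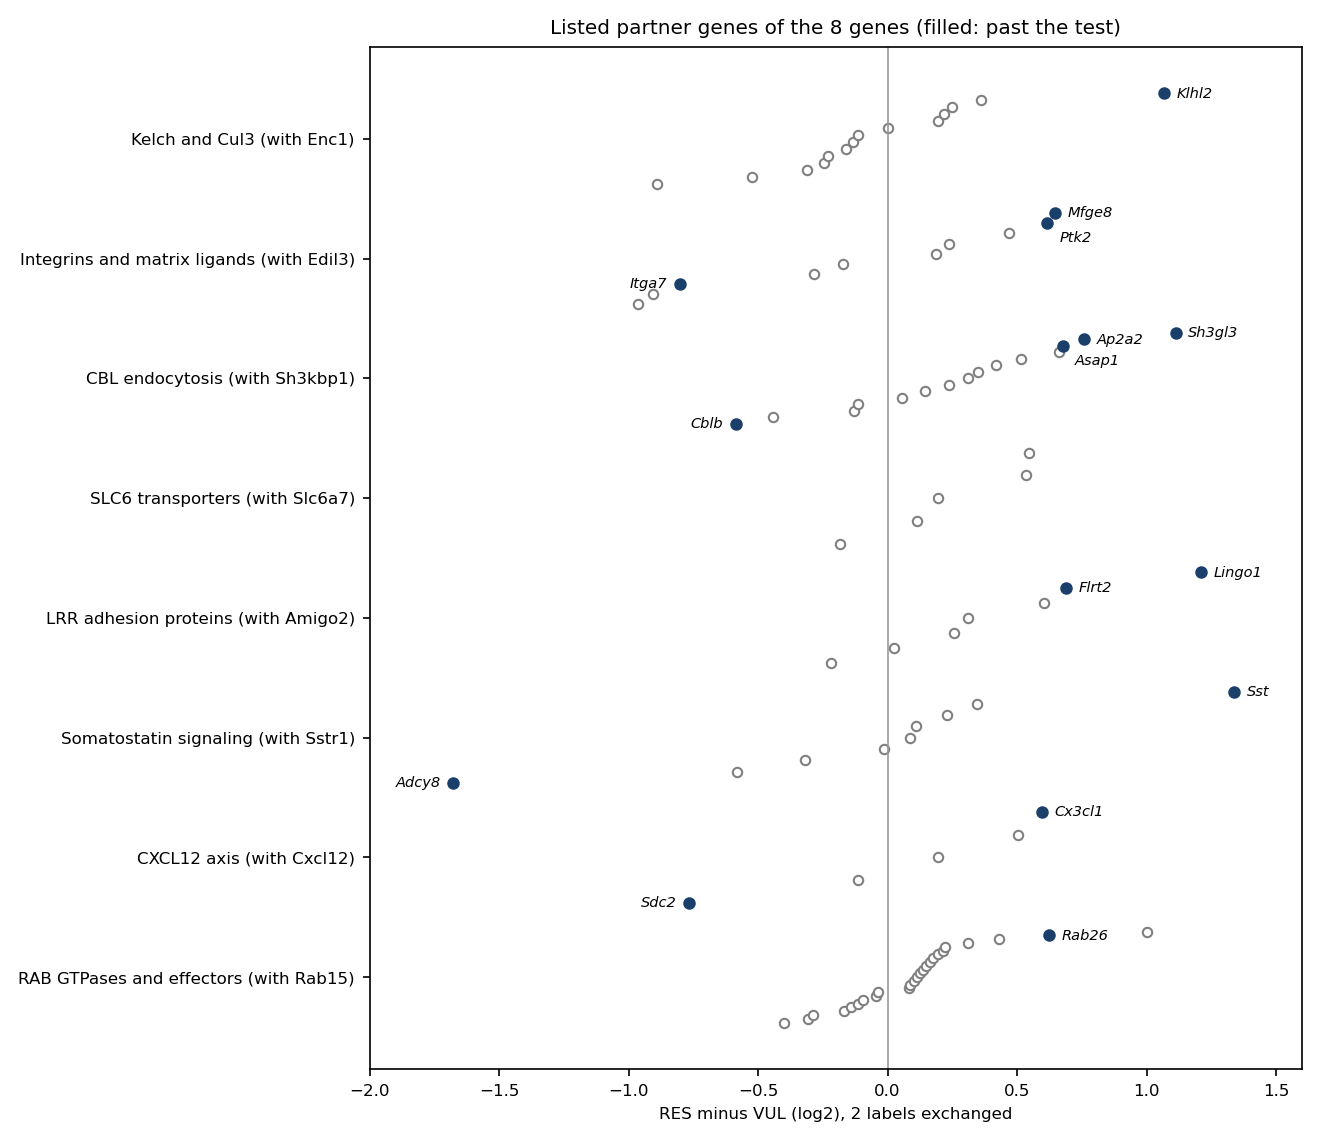
Log2 difference of RES minus VUL with the 2 labels exchanged for the 90 tested partner genes, in 8 lists, each point a gene. Filled points passed the test (11 higher and 4 lower), among them *Sst* at 1.34 and *Adcy8* at -1.68.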

How the data were processed

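RNA of laser-captured neurons of 4 regions was measured on 12 arrays. The deposited values are MAS5 signal intensities, which the authors made in Affymetrix's GeneChip Operating Software and scaled to 1 target per array. Detection calls were not used. Of 15923 probe sets, 57 controls were left out. Of the other 15866, 12789 had 1 gene symbol, 312 several and 2771 none. The 8986 (56.6%) with a signal above the array median in at least 3 of 12 arrays were tested, and 0 columns had no sample.

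The median of each array was subtracted from its log2 signals, which were fitted in limma 3.58.1 (R 4.3.3) with a mean per region and the replicate number as a block, with Benjamini-Hochberg adjustment over all tested probe sets. Replicate numbers were taken as rats, since the methods describe all regions from each animal and use a paired test, though the labels tie no number to an animal. The deviations of same-numbered arrays had a mean correlation of -0.066 as labelled (18 pairs) and 0.065 with the 2 labels exchanged. Likeness was Pearson's r over the 12 arrays. Errors are standard errors of the fit unless given as SD. The fit was also run on simulated data with changes in CTX and CbG alone and no replicate effect. These are simpler than the real arrays, and nothing is drawn from that run here.

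The 8 genes and the partner lists were chosen with earlier results of these data known, and the exchange of 2 labels was prompted by their values. Named are the 8 genes, described first by the probe set of the highest mean signal, the 2 closest genes of each, the 10 closest to their mean profile, and up to 3 partners of a list past a test, by size. *Slc6a7* was read from a probe set that the study alone names so. Alternatives were no centring, quantile normalization, adding 50 or a floor of 50, filters of 8 of 12 arrays or none, no block, a trend prior, a fold minimum of 2, the methods' paired test, other probe sets, and leaving out each array or replicate. Figures were drawn in matplotlib 3.10.9 (Python 3.11.15).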

Additional observations from a re-analysis of the deposited data

Results flagged for a closer look

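As labelled, 5 values of the 8 genes stood apart from the rest of their group by Dixon's test at 6 arrays a group. These were 108.0 for *Enc1* in CA3 replicate 3, 349.1 and 1282.8 for *Edil3* in CA3 replicate 3 and CbG replicate 3, 41.3 for the dimmer probe set of *Sh3kbp1* in CA3 replicate 3, and 66.5 for *Slc6a7* in CA3 replicate 3. With the labels exchanged 2 values stood apart, 2006.1 for *Edil3* in CA3 replicate 2 and 5.4 for *Sstr1* in CbG replicate 2. In all, 7 of 40 groups were marked. The test's rate of about 1 in 20 is no yardstick here. Each group pools 2 regions, and the same arrays enter both arrangements. The difference between both region pairs passed its test with the labels exchanged for *Enc1* (5.605), *Sstr1* (3.445) and *Slc6a7* (2.52). The cause of none of these was tested.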

How the results depend on the processing

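The arrangement of the 2 arrays changed most counts. As labelled, the pair difference called 181 probe sets, CTX minus CA3 174, CbG minus CA1 74 and RES minus VUL 1. With both arrays left out these were 1196, 2481, 3332 and 1568, and with the labels exchanged 1980, 3009, 3648 and 1739. As labelled, no filter gave 53, 39 and 4 in the first 3 contrasts, and RES minus VUL called 0 with a filter of 8 of 12 arrays or a trend prior, 2 with no centring, 15 after quantile normalization, 19 with 50 added and 30 with a floor of 50. CbG minus CA1 called 148 with 50 added and 138 with the floor. Leaving out arrays or replicates gave 0 to 1052, 0 to 1653, 0 to 2852 and 0 to 1237. With the labels exchanged, no filter gave 1151 for the pair difference and 1867 for CTX minus CA3, a fold minimum of 2 gave 1389 for CTX minus CA3, 2293 for CbG minus CA1 and 654 for RES minus VUL, and leaving out gave 858 to 1982, 1144 to 3249 and 1072 to 1851 for the pair difference, CTX minus CA3 and RES minus VUL. The methods' paired test on RES minus VUL called 285 before and 0 after adjustment as labelled, and 1145 and 183 with the labels exchanged. The pairing by replicate number mattered as labelled: with no replicate block the counts were 347, 411, 258 and 41. Of the 8 genes, the block changed the calls of *Cxcl12*, *Sstr1* and *Enc1* in CTX minus CA3 with the labels exchanged.

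Of the 8 genes with the labels exchanged, 1 to 4 were called in the pair difference over all alternatives (1 with no filter, where *Slc6a7* had an adjusted p of 0.0560 and *Sstr1* of 0.0858), 2 to 7 in CTX minus CA3 and 4 to 7 in CbG minus CA1. Over all tested probe sets, 8986 but for the alternative filters, the calls in these contrasts were 858 to 2323, 1144 to 3249 and 2293 to 3777. Nothing particular to the 8 genes is read from these counts. Values that changed sign were not called. With the labels exchanged they were small, but as labelled they were larger where arrays or replicates were left out. The pair difference of *Sh3kbp1* was 0.138 without both arrays, 0.559 by its other probe set, 0.039 with no centring and 0.176 after quantile normalization. That of *Amigo2* was 0.001 and 0.052 in the last 2, and that of *Cxcl12* 0.131 after quantile normalization and 0.070 with 50 added. CTX minus CA3 of *Edil3* was 0.023 with no centring and 0.110 after quantile normalization, and RES minus VUL of *Lrfn2*, an adhesion partner at 0.60 otherwise, was -0.080 with the floor. Leaving out arrays or replicates moved the pair difference as labelled between -1.779 and 0.286 for *Edil3*, -1.455 and 1.343 for *Sh3kbp1*, -2.181 and 1.751 for *Amigo2*, -0.754 and 0.381 for *Cxcl12* and -0.306 and 2.097 for *Rab15*, and with the labels exchanged between -0.373 and 0.138 for *Sh3kbp1*, -0.370 and 0.027 for *Amigo2* and -0.414 and 0.196 for *Cxcl12*. Without centring, the share of higher calls was 62.3% in place of 28.7% in CTX minus CA3, 58.7% in place of 45.9% in the pair difference and 57.1% in place of 44.4% in RES minus VUL with the labels exchanged, since centring moves the median of all probe sets (-0.271 against 0.053 in CTX minus CA3). The causes of the other changes were not tested.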
